A study of Mus musculus with 18 samples.

Results

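Transcripts of 10 genes known from neutrophils were followed in sorted lung monocytes and macrophages: the alarmin and secreted-protein genes S100a8, S100a9 and Retnlg, the specific granule genes Camp, Ngp and Ltf, the azurophil granule genes Mpo and Elane, and the receptor genes Cxcr2 and Csf3r. They were taken by gene symbol, as 10 of the 21254 rows of the count table. All 10 were among the 15811 genes with enough counts to be tested. A count was present in all 18 libraries for 8 of them, in 15 libraries for Mpo and in 11 libraries for Elane.

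The libraries came from lungs of mice that inhaled an aerosol of Pseudomonas aeruginosa LPS (12.5 mg in 5 ml, over 15 min) and were sacrificed 24 h later. Both genotypes carried a Cre recombinase at the Cx3cr1 locus, which is active in monocytes and macrophages: the WT mice had this Cre without a floxed allele, and the Ezr-KOm mice had it with Ezrin fl/fl, so that ezrin, a linker of membrane and actin, was deleted in these cells. From CD45+CD11b+ cells, monocyte-derived macrophages (moMs, MHC-II-Ly6C+), transitional interstitial macrophages (tnsIMs, named trIMs in the labels, MHC-II+Ly6C+) and mature interstitial macrophages (matIMs, MHC-II+Ly6C-) were sorted, with 3 libraries for each of the 6 groups. The study's gating set granulocytes aside before this sort. Libraries of untreated mice or of sorted neutrophils were not analysed here. These are bulk samples, in which fewer cells of a type and less RNA per cell cannot be told apart.

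Neutrophils load their granules in sequence while they mature in the bone marrow. Azurophil granule proteins such as myeloperoxidase and elastase are transcribed at the promyelocyte stage, specific granule proteins such as lactoferrin and cathelicidin at the next stage, and CXCR2 and the alarmins S100A8 and S100A9 are prominent in the mature cell that leaves for inflamed lung. Several of these genes are not private to neutrophils: myeloid progenitors shared with monocytes transcribe the azurophil granule genes, and classical monocytes transcribe S100a8, S100a9 and Csf3r.

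Library totals ran from 16512783 to 48460995 counts. Ezr was lower in every Ezr-KOm library than in every WT library of the same population, at 93.9 to 282 against 497 to 741 counts per 1000000 of the TMM-scaled library total (CPM) over the 3 populations. The summed CPM of 5 MHC class II genes was 3742 to 6733 in moMs, 26120 to 57570 in tnsIMs and 40440 to 55840 in matIMs, and that of 10 monocyte and macrophage genes was 15080 to 17140, 11170 to 16110 and 6574 to 7579 CPM. Markers of other cells moved with population: 5 epithelial genes summed to 17.7 to 117, 1462 to 3941 and 162 to 359 CPM, 5 endothelial genes to 68 to 98.6, 162 to 383 and 48.2 to 68.9 CPM, 5 dendritic cell genes to 56.5 to 71.4, 123 to 222 and 1771 to 2657 CPM, and 4 B cell genes to 8.57 to 13.2, 35.1 to 98.7 and 83.5 to 219 CPM, in the same order of populations. Likewise, 5 eosinophil, basophil and mast cell genes summed to 2.05 to 3.53, 4.03 to 8.02 and 7.97 to 10.85 CPM, and 5 alveolar macrophage genes to 35.7 to 54.5, 67.8 to 149 and 146 to 308 CPM. The populations overlapped for 5 T and NK cell genes (12.9 to 21.4, 14.4 to 26 and 13.1 to 20.7 CPM) and 5 erythroid genes (3.32 to 24.1, 4.69 to 30 and 4.95 to 35.7 CPM). The part of these cells in the results was not tested. The study's gate set granulocytes apart by CD24 and MHC-II, and used Ly6G to mark neutrophils among them. Its gene Ly6g had between 0 and 24 counts in each library.

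The bases before the transcription start are shown for the 7 members whose window holds a match of at least 1 of the motifs searched. Each window holds the 250 bases before the canonical start in GRCm39 (GENCODE M39), read 5′ to 3′ on the strand of the gene. Capitals mark 2 motifs searched on both strands: TTGCNNAA, a form of the site bound by C/EBP factors, and GAGGAAG, the core of a site bound by the ETS factor PU.1. Both factor families act in myeloid gene transcription. The first motif is in the windows of 4 of the 10 members (S100a9, Camp, Ngp and Ltf) and in 9.34% of the windows of 21770 protein-coding genes. The second is in those of 3 members (S100a8, Mpo and Elane) and in 10.3% of all windows. No match of one motif overlapped a match of the other in the 10 windows. The windows of Retnlg, Cxcr2 and Csf3r hold neither motif.

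S100a8 and S100a9, which encode the subunits of calprotectin and lie 22.6 kb apart on chromosome 3, have windows that hold different motifs.
S100a8, chr3:90576035-90576284, plus strand: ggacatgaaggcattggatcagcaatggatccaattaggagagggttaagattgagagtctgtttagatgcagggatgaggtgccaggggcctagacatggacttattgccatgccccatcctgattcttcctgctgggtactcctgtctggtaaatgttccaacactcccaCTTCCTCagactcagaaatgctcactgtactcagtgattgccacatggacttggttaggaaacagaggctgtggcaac
S100a9, chr3:90603072-90603321, minus strand: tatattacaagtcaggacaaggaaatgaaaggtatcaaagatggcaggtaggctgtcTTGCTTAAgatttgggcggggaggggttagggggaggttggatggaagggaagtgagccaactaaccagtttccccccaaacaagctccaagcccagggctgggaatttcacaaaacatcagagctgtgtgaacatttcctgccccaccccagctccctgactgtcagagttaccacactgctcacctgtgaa

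The specific granule genes Camp, Ngp and Ltf lie within 1.17 Mb of chromosome 9, and each has a TTGCNNAA match, at 105, 77 and 54 bases before the start, counted to the first base of the match.
Camp, chr9:109678686-109678935, minus strand: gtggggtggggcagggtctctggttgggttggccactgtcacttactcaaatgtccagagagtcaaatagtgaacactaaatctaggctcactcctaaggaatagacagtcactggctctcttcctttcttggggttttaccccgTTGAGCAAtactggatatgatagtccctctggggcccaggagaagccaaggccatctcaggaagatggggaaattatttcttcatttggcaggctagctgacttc
Ngp, chr9:110248565-110248814, plus strand: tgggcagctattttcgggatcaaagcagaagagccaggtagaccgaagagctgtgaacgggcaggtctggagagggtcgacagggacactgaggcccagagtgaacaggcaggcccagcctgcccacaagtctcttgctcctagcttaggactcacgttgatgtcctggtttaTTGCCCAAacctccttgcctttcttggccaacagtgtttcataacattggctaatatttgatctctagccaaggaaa
Ltf, chr9:110848089-110848338, plus strand: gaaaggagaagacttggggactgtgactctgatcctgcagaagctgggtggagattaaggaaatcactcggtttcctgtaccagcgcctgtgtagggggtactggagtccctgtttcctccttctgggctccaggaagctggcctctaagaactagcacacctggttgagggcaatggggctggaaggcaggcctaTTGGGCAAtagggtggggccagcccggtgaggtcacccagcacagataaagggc

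The azurophil granule genes Mpo and Elane hold GAGGAAG matches within the last 44 bases of the window, 2 in Mpo and 1 in Elane.
Mpo, chr11:87684157-87684406, plus strand: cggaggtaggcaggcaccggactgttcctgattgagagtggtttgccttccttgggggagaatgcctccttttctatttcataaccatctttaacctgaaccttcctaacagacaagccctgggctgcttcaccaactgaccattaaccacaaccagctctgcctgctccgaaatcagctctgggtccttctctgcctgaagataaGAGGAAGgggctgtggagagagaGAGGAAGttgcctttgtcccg
Elane, chr10:79721831-79722080, plus strand: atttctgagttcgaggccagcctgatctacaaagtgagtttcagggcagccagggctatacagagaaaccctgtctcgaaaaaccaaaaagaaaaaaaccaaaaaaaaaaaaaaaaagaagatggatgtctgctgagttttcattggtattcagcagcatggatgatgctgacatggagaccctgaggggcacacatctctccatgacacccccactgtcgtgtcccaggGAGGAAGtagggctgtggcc

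S100a9, the larger subunit of calprotectin, was low in moMs and high in both MHC-II+ populations, whereas S100a8 was abundant in all 3. S100a9 (chromosome 3, 90599939 to 90603028, minus strand, GRCm39) was in moMs at 20.8, 16.4 and 9.72 CPM in the 3 WT libraries and 20.6, 10.5 and 12.9 CPM in the 3 Ezr-KOm libraries. In tnsIMs it was at 96.4, 72.6 and 109 CPM in the 3 WT libraries and 63.4, 99 and 106 CPM in the 3 Ezr-KOm libraries. In matIMs it was at 66.9, 79.8 and 66.4 CPM in the 3 WT libraries and 46.7, 54.2 and 111 CPM in the 3 Ezr-KOm libraries. Every tnsIM and matIM library was above every moM library. The log2 fold change of WT tnsIMs over moMs was 2.57 (SE 0.34, adjusted p = 3.42e-05) by edgeR's quasi-likelihood test with Benjamini-Hochberg adjustment over all genes tested, and that of Ezr-KOm tnsIMs over moMs was 2.61 (SE 0.34, adjusted p = 5.04e-05). In matIMs over moMs it was 2.19 (SE 0.34, adjusted p = 8.06e-05) in WT and 2.27 (SE 0.34, adjusted p = 5.59e-05) in Ezr-KOm mice. The tests of tnsIMs and of matIMs share the moM libraries of their genotype, while those of WT and Ezr-KOm mice share no library. All 4 calls of S100a9 held under every alternative run, with the library left out in turn included.

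S100a8 (chromosome 3, 90576285 to 90577342, plus strand) was in moMs at 72.2, 39.5 and 43.8 CPM in the 3 WT libraries and 49.7, 59.8 and 69.2 CPM in the 3 Ezr-KOm libraries. In tnsIMs it reached 90.4, 73.8 and 105 CPM in the 3 WT libraries and 62.2, 98.6 and 109 CPM in the 3 Ezr-KOm libraries. In matIMs it lay at 69.5, 80.2 and 61.2 CPM in the 3 WT libraries and 38.1, 67.4 and 113 CPM in the 3 Ezr-KOm libraries. The WT tnsIMs lay above the WT moMs without overlap, while the Ezr-KOm groups and all matIM groups overlapped the moMs of their genotype. The log2 fold change of 0.79 (SE 0.31) in WT tnsIMs over moMs did not pass the adjusted threshold (edgeR adjusted p = 0.0744, with 0.00727 to 0.234 over the alternatives). Libraries of the same number deviated together between these populations, and when the fit was blocked by number the adjusted p was 0.0594, and with a block of the number within genotype it was 0.00727 at a log2 fold change of 0.82. The log2 fold changes of S100a8 in the other 3 comparisons with moMs were between 0.29 and 0.60. The count ratio of S100a9 to S100a8 was 0.288, 0.416 and 0.222 in WT moMs and 0.414, 0.176 and 0.186 in Ezr-KOm moMs, against 0.974 to 1.07 over the 6 tnsIM libraries and 0.804 to 1.23 over the 6 matIM libraries. The ratio was looked at after the values of both genes were seen and carries no test. For 8 other S100 genes of the same cluster on chromosome 3, among them S100a4, S100a6, S100a10 and S100a11, the median log2 fold change of tnsIMs over moMs was 0.05 in WT and -0.02 in Ezr-KOm mice. In matIMs over moMs, S100a3, a scarce transcript with group means under 0.6 CPM, rose by 3.91 (SE 1.10, adjusted p = 0.0129) in WT and 3.25 (SE 0.98, adjusted p = 0.0208) in Ezr-KOm mice. S100a10 fell in Ezr-KOm matIMs with a log2 fold change of -0.53 (SE 0.19, adjusted p = 0.0466). That call was lost without any 1 of the 3 moM libraries or the 2nd or 3rd matIM library (adjusted p = 0.144, 0.1, 0.0594, 0.184 and 0.109) and, among other settings, with RLE factors or library totals in place of TMM (adjusted p = 0.0609 and 0.108), with a range of 0.00452 to 0.184 over the alternatives.

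**Figure D1:**
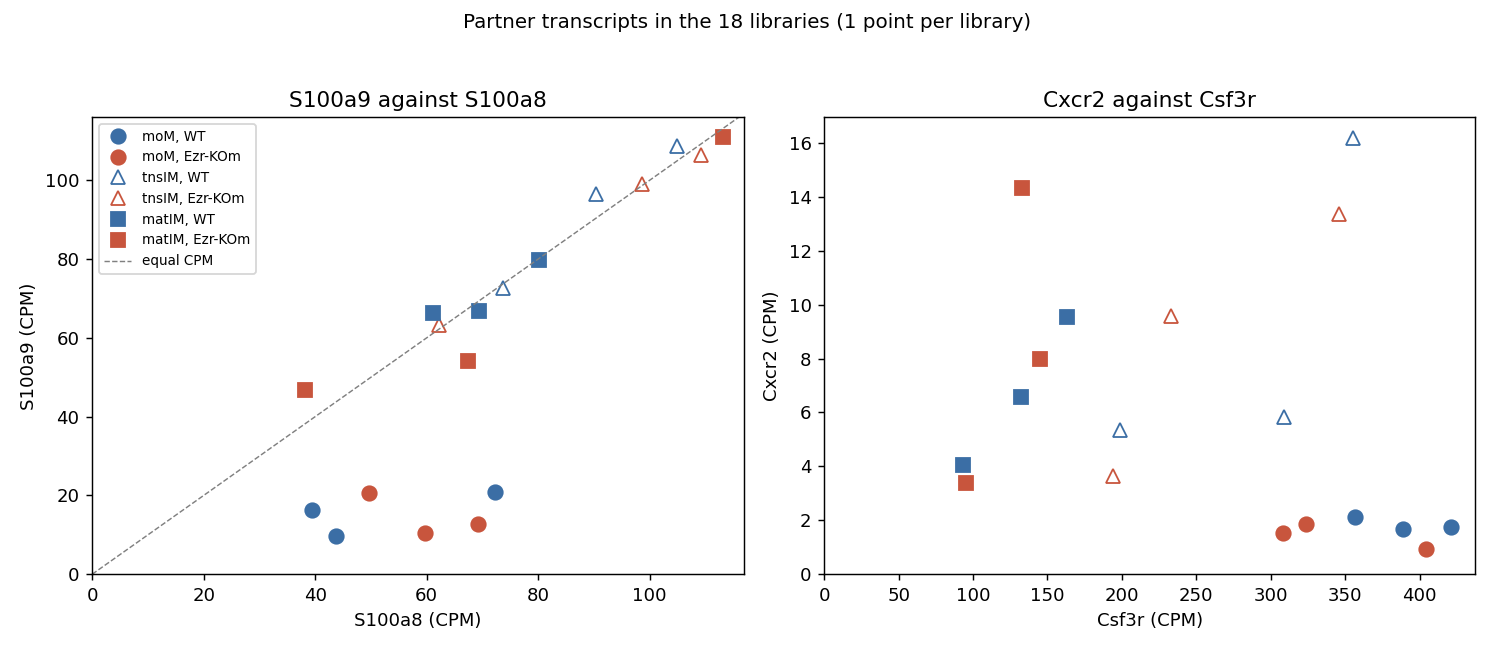
Partner transcripts in the 18 libraries, 1 point per library, in CPM on linear axes from 0. Left: S100a9 against S100a8 with the line of equal CPM, where tnsIM and matIM libraries lie along the line and the 6 moM libraries lie below it, at ratios of 0.176 to 0.416. Right: Cxcr2 against Csf3r, where the moM libraries have the lowest Cxcr2 CPM and the matIM libraries the lowest Csf3r CPM. Blue marks WT, red Ezr-KOm; circles are moMs, open triangles tnsIMs and squares matIMs.

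Retnlg, which encodes resistin-like gamma, a secreted protein of mature neutrophils, had the highest log2 fold change of the members in 3 of the comparisons with moMs and was level with Ngp in Ezr-KOm matIMs, at 3.41 each. It (chromosome 16, 48692984 to 48694859, plus strand) was in moMs at 1.54, 0.704 and 0.866 CPM in the 3 WT libraries and 2.48, 0.81 and 1.06 CPM in the 3 Ezr-KOm libraries. The tnsIMs had it at 13.7, 7.67 and 17.6 CPM in the 3 WT libraries and 8.97, 12.6 and 23 CPM in the 3 Ezr-KOm libraries. The matIMs had it at 10.8, 9.95 and 13.4 CPM in the 3 WT libraries and 8.25, 13.2 and 24.8 CPM in the 3 Ezr-KOm libraries. No tnsIM or matIM library overlapped a moM library, and the lowest MHC-II+ value was in the 2nd WT tnsIM library. The log2 fold changes over moMs were 3.68 (SE 0.51, adjusted p = 5.28e-05) in WT tnsIMs, 3.36 (SE 0.49, adjusted p = 0.000141) in Ezr-KOm tnsIMs, 3.49 (SE 0.51, adjusted p = 4.77e-05) in WT matIMs and 3.41 (SE 0.49, adjusted p = 3.98e-05) in Ezr-KOm matIMs. All 4 calls held under every alternative. Without the 1st Ezr-KOm moM library, the highest of its group, the Ezr-KOm values were 3.99 for tnsIMs and 4.04 for matIMs. The adjusted p then was 0.00016 and 4.79e-05, within ranges of 7.21e-12 to 0.00181 and 9.53e-13 to 0.001 over the alternatives.

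**Figure D2:**
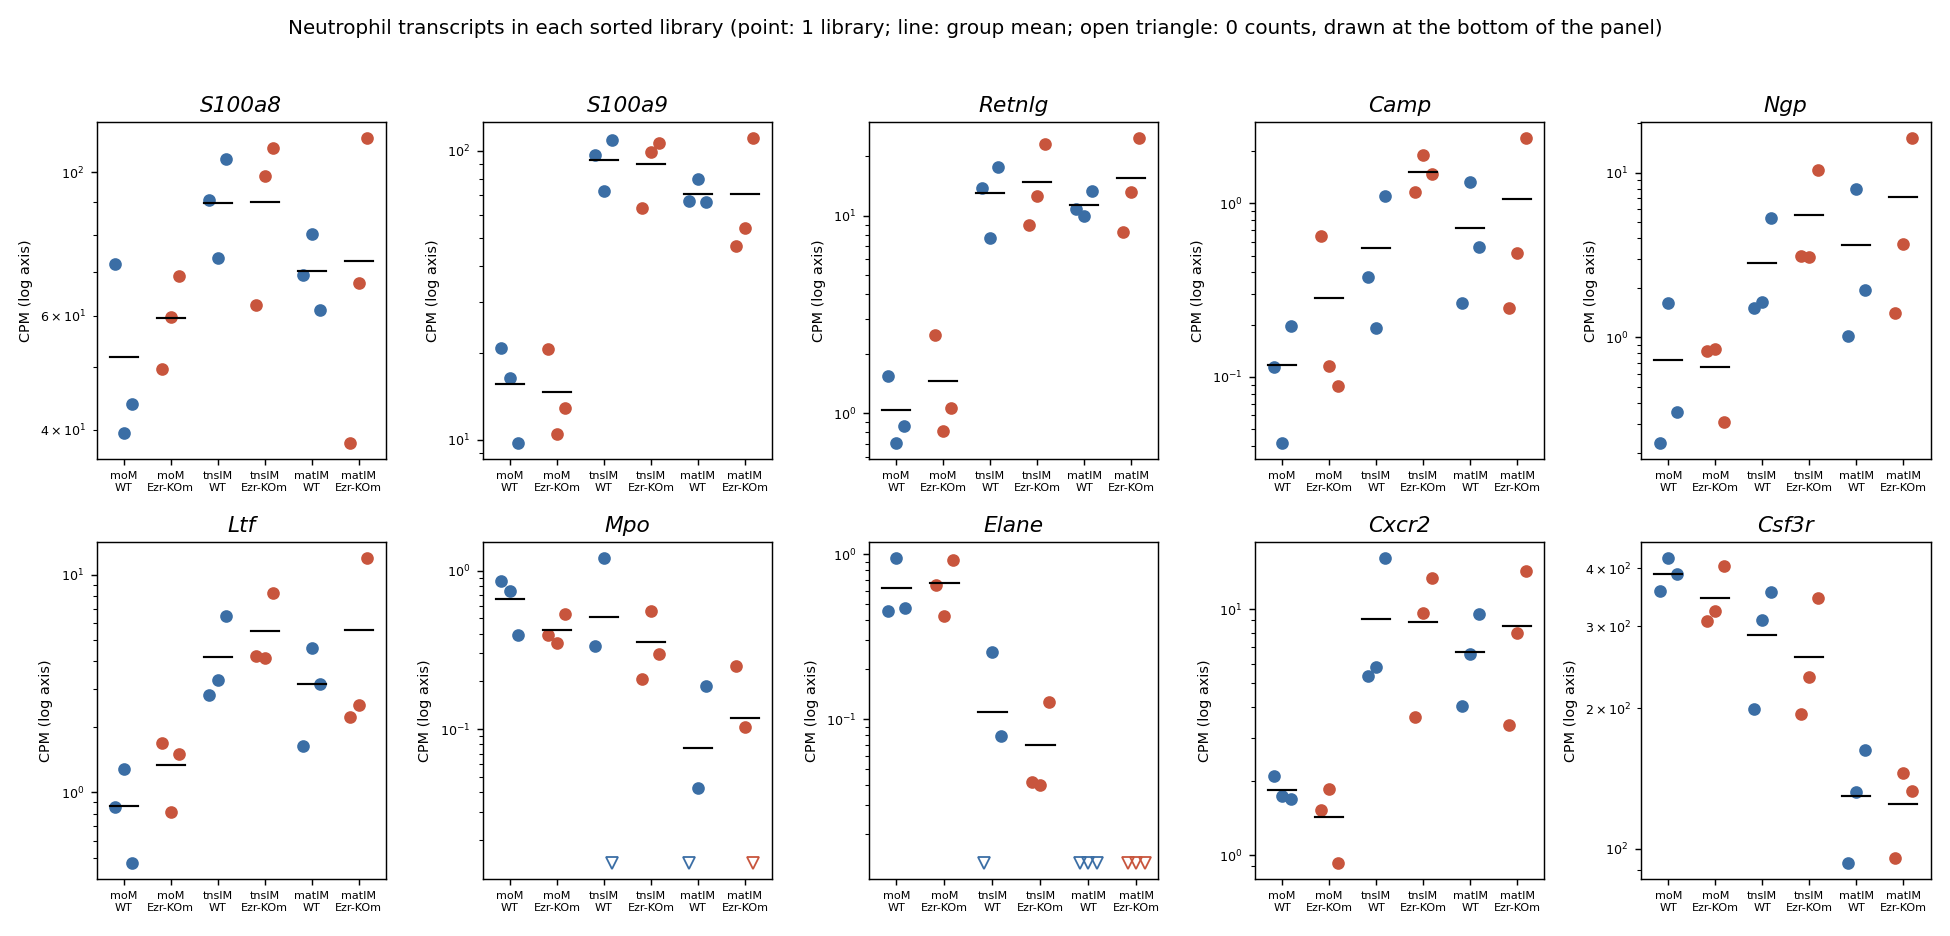
Level of the 10 transcripts in every library, in CPM on a log axis of its own for each gene. Points are single libraries (blue WT, red Ezr-KOm), black lines are the means of the 3 libraries of a group, and open triangles at the bottom stand for libraries with 0 counts. S100a9, Retnlg and Cxcr2 are higher in all tnsIM and matIM libraries than in all moM libraries, Elane has 0 counts in the 6 matIM libraries, and Csf3r is lowest in matIMs.

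The specific granule transcripts were scarce throughout, with a wide spread between libraries. By the adjusted threshold Ltf rose in all 4 comparisons with moMs, Ngp in the 2 of Ezr-KOm mice and Camp in none. Ltf, the gene of the iron-binding protein lactoferrin (chromosome 9, 110848339 to 110871835, plus strand), was in moMs at 0.854, 1.28 and 0.472 CPM in the 3 WT libraries and 1.7, 0.81 and 1.5 CPM in the 3 Ezr-KOm libraries. The level in tnsIMs was 2.79, 3.3 and 6.5 CPM in the 3 WT libraries and 4.24, 4.15 and 8.22 CPM in the 3 Ezr-KOm libraries. The level in matIMs was 1.64, 4.61 and 3.17 CPM in the 3 WT libraries and 2.22, 2.51 and 12 CPM in the 3 Ezr-KOm libraries. The moM libraries were all below the tnsIM and matIM libraries of their genotype. Ltf rose in tnsIMs over moMs by a log2 fold change of 2.27 (SE 0.63, adjusted p = 0.0143) in WT and 2.05 (SE 0.60, adjusted p = 0.0272) in Ezr-KOm mice, and in matIMs over moMs by 1.85 (SE 0.63, adjusted p = 0.0377) in WT and 2.06 (SE 0.60, adjusted p = 0.0175) in Ezr-KOm mice. All 4 calls held with the number within genotype as a block. The edgeR adjusted p was then 0.00194 in WT tnsIMs and 0.00817 in WT matIMs. In Ezr-KOm tnsIMs and matIMs it was 0.00413 and 0.00829. In fits without a block, each call was lost when 1 of several libraries was left out. In WT tnsIMs the call was lost without the 3rd moM or the 3rd tnsIM library (adjusted p = 0.074 and 0.0608). In WT matIMs it was lost without the 1st or 3rd moM or the 2nd or 3rd matIM library (adjusted p = 0.0915, 0.148, 0.151 and 0.0674). In Ezr-KOm tnsIMs it was lost without the 2nd or 3rd moM or the 3rd tnsIM library (adjusted p = 0.11, 0.0733 and 0.0897). In Ezr-KOm matIMs it was lost without the 2nd moM or the 3rd matIM library (adjusted p = 0.0787 and 0.305), and the log2 fold change was 0.83 without the latter. Over all alternatives the adjusted p ran from 0.000865 to 0.074, 0.00817 to 0.151, 0.00309 to 0.11 and 0.00196 to 0.305, in the order WT tnsIMs, WT matIMs, Ezr-KOm tnsIMs and Ezr-KOm matIMs.

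Ngp, which encodes neutrophilic granule protein, a relative of the cathelicidins (chromosome 9, 110248815 to 110252080, plus strand), was in moMs at 0.228, 1.62 and 0.354 CPM in the 3 WT libraries and 0.827, 0.848 and 0.308 CPM in the 3 Ezr-KOm libraries. In tnsIMs it was at 1.5, 1.65 and 5.33 CPM in the 3 WT libraries and 3.12, 3.07 and 10.3 CPM in the 3 Ezr-KOm libraries. In matIMs it was at 1.02, 7.95 and 1.94 CPM in the 3 WT libraries and 1.4, 3.71 and 16.3 CPM in the 3 Ezr-KOm libraries. The 3rd Ezr-KOm matIM and the 3rd Ezr-KOm tnsIM libraries stood above all others, and the WT groups overlapped through the 2nd WT moM library. Ngp rose over moMs in Ezr-KOm tnsIMs by 3.03 (SE 0.96, adjusted p = 0.0401) and in Ezr-KOm matIMs by 3.41 (SE 0.96, adjusted p = 0.014) on the log2 scale. In WT mice the log2 fold changes did not pass, at 1.92 (SE 0.95, adjusted p = 0.162) in tnsIMs and 2.26 (SE 0.95, adjusted p = 0.0923) in matIMs. All 3 WT tnsIM libraries had more Ngp than the WT moM library of the same number, and the log2 fold change was 1.93 (adjusted p = 0.0994) with the number as a block and 2.35 (adjusted p = 0.0313), a call, with the number within genotype as a block. The call in Ezr-KOm tnsIMs was lost without any 1 of the 3 moM libraries or the 3rd tnsIM library (adjusted p = 0.0838, 0.0882, 0.153 and 0.14, with a range of 0.00628 to 0.153 over the alternatives), with a log2 fold change of 2.21 without the last. That in Ezr-KOm matIMs was lost without the 3rd moM or the 3rd matIM library (adjusted p = 0.063 and 0.159, with a range of 0.00385 to 0.159), with 1.94 without the latter.

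Camp, the gene of the antimicrobial peptide cathelicidin (chromosome 9, 109676447 to 109678685, minus strand), was in moMs at 0.114, 0.0414 and 0.197 CPM in the 3 WT libraries and 0.652, 0.116 and 0.0881 CPM in the 3 Ezr-KOm libraries. The tnsIMs had it at 0.376, 0.19 and 1.1 CPM in the 3 WT libraries and 1.16, 1.9 and 1.48 CPM in the 3 Ezr-KOm libraries. The matIMs had it at 0.266, 1.32 and 0.559 CPM in the 3 WT libraries and 0.251, 0.516 and 2.39 CPM in the 3 Ezr-KOm libraries. The WT matIM and the Ezr-KOm tnsIM libraries lay above the moMs of their genotype without overlap, and the other 2 groups overlapped them. The lowest of these levels stand for few reads, with counts from 1 to 15 in the moM libraries. None of its log2 fold changes over moMs passed the adjusted threshold: 2.23 (SE 1.01, adjusted p = 0.127) in WT tnsIMs, 2.41 (SE 0.87, adjusted p = 0.0729) in Ezr-KOm tnsIMs, 2.55 (SE 1.00, adjusted p = 0.0717) in WT matIMs and 1.86 (SE 0.87, adjusted p = 0.143) in Ezr-KOm matIMs. All 4 met the looser rule used in the study, an unadjusted p under 0.05 with a log2 fold change over 0.75 in size, which 21%, 16.8%, 22.8% and 22.5% of all genes met in these comparisons. Without the 1st Ezr-KOm moM library, the highest moM library for Camp, both Ezr-KOm comparisons passed the adjusted threshold (adjusted p = 0.0238 for tnsIMs and 0.0383 for matIMs, with ranges over the alternatives of 0.0238 to 0.245 and 0.0383 to 0.822). Without the 3rd Ezr-KOm matIM library, the log2 fold change of Ezr-KOm matIMs over moMs was 0.44. DESeq2 in place of edgeR called Camp in WT matIMs (adjusted p = 0.0325, with a range of 0.0325 to 0.294 over the alternatives) and in Ezr-KOm tnsIMs (adjusted p = 0.0344).

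Of the azurophil granule transcripts, Elane fell in all 4 comparisons with moMs and Mpo passed the adjusted threshold in none. Elane, the gene of neutrophil elastase (chromosome 10, 79722081 to 79724049, plus strand), had 8, 23 and 12 counts in the WT moM libraries and 15, 11 and 21 in the Ezr-KOm moM libraries. It had 0, 4 and 2 counts in WT tnsIMs and 1, 2 and 3 counts in Ezr-KOm tnsIMs. In all 6 matIM libraries it had 0 counts. Every moM library was above every library of the other populations, as the moMs lay between 0.424 and 0.953 CPM and the tnsIMs between 0 and 0.254 CPM. Elane fell in WT tnsIMs against moMs with a log2 fold change of -2.63 (SE 0.85, adjusted p = 0.0389). Against a floor of 3 counts per library, Elane was at least 5.04-fold lower in WT matIMs and at least 5.95-fold lower in Ezr-KOm matIMs than in the moMs of the same genotype. The tests of Elane against moMs passed in all 4 comparisons, and the 3 in which all libraries of 1 group had at most 3 counts were not followed under the alternatives. The one in WT tnsIMs was lost without any 1 of the 3 moM libraries or without the 1st or 3rd tnsIM library (adjusted p = 0.05005, 0.132, 0.0588, 0.116 and 0.0999, with a range of 0.0192 to 0.132 over the alternatives).

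Mpo, the gene of myeloperoxidase (chromosome 11, 87684407 to 87695239, plus strand), was in moMs at 0.854, 0.746 and 0.394 CPM in the 3 WT libraries and 0.392, 0.347 and 0.529 CPM in the 3 Ezr-KOm libraries. The level in tnsIMs was 0.334, 1.21 and 0 CPM in the 3 WT libraries and 0.208, 0.559 and 0.297 CPM in the 3 Ezr-KOm libraries. The level in matIMs was 0, 0.0427 and 0.186 CPM in the 3 WT libraries and 0.251, 0.103 and 0 CPM in the 3 Ezr-KOm libraries. The matIM libraries were below the moM libraries without overlap, while the tnsIMs ranged from 0 to the highest value of all, in the 2nd WT tnsIM library. The log2 fold change of WT matIMs over moMs, -2.96 (SE 1.10, adjusted p = 0.0581), met the rule of the study and missed the adjusted threshold. It passed without the 3rd matIM library, the highest of its group (adjusted p = 0.0386, log2 fold change -4.64, with a range of 0.0261 to 0.171), and with DESeq2 (adjusted p = 0.0282). The reference annotation has a long noncoding RNA on the opposite strand across Mpo (Gm11505), and another across Csf3r (Gm32908). The libraries do not mark strand, so reads of such partners cannot be told apart.

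The receptor genes moved in opposite directions. Cxcr2, the receptor for the CXC chemokines that recruit neutrophils (chromosome 1, 74193148 to 74200405, plus strand), was in moMs at 2.11, 1.74 and 1.69 CPM in the 3 WT libraries and 1.52, 1.85 and 0.925 CPM in the 3 Ezr-KOm libraries. In tnsIMs it was at 5.34, 5.83 and 16.2 CPM in the 3 WT libraries and 3.66, 9.6 and 13.3 CPM in the 3 Ezr-KOm libraries. In matIMs it was at 4.04, 6.58 and 9.54 CPM in the 3 WT libraries and 3.37, 7.98 and 14.3 CPM in the 3 Ezr-KOm libraries. All MHC-II+ libraries were above all moM libraries, and the 3rd libraries of the WT tnsIM, Ezr-KOm tnsIM and Ezr-KOm matIM groups were the highest. Cxcr2 rose over moMs by a log2 fold change of 2.31 (SE 0.56, adjusted p = 0.00578) in WT tnsIMs, 2.62 (SE 0.56, adjusted p = 0.00351) in Ezr-KOm tnsIMs, 1.87 (SE 0.55, adjusted p = 0.0179) in WT matIMs and 2.57 (SE 0.56, adjusted p = 0.00227) in Ezr-KOm matIMs. The call in WT matIMs was lost without the 2nd or 3rd moM or the 3rd matIM library (adjusted p = 0.0604, 0.0636 and 0.0758, with a range of 0.00165 to 0.0758 over the alternatives). The other 3 held under every alternative, at 1.60 in WT tnsIMs without their 3rd library and 1.98 in Ezr-KOm matIMs without theirs.

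Csf3r, the receptor for the granulocyte colony-stimulating factor G-CSF (chromosome 4, 125918343 to 125938233, plus strand), was in moMs at 357, 421 and 389 CPM in the 3 WT libraries and 308, 324 and 404 CPM in the 3 Ezr-KOm libraries. The tnsIMs had it at 199, 309 and 355 CPM in the 3 WT libraries and 194, 233 and 346 CPM in the 3 Ezr-KOm libraries. The matIMs had it at 93, 132 and 163 CPM in the 3 WT libraries and 95.3, 145 and 133 CPM in the 3 Ezr-KOm libraries. The matIM libraries lay below all others, and the WT tnsIMs lay just below the WT moMs, while the Ezr-KOm tnsIMs overlapped the Ezr-KOm moMs. Csf3r fell in matIMs against moMs with log2 fold changes of -1.59 (SE 0.25, adjusted p = 0.000102) in WT and -1.47 (SE 0.25, adjusted p = 0.000219) in Ezr-KOm mice, and in matIMs against tnsIMs with -1.15 (SE 0.25, adjusted p = 0.0023) and -1.05 (SE 0.25, adjusted p = 0.00468). These 4 calls held under every alternative. The log2 fold changes of tnsIMs over moMs, -0.43 (SE 0.24, adjusted p = 0.22) in WT and -0.42 (SE 0.24, adjusted p = 0.287) in Ezr-KOm mice, did not pass. Each tnsIM library had less Csf3r than the moM library of its genotype and number, and with the number as a block both comparisons passed, at -0.48 (SE 0.15, adjusted p = 0.0196) in WT and -0.45 (SE 0.15, adjusted p = 0.0347) in Ezr-KOm mice. With the number within genotype as a block the adjusted p was 0.0223 and 0.0388. Csf3r had the most counts of the members in every library. The 10 members summed to 386 to 492 CPM in moMs, 341 to 618 CPM in tnsIMs and 196 to 427 CPM in matIMs, and to 58 to 99.2, 147 to 272 and 101 to 294 CPM without it.

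Counted over the 10 members, 4 rose and 1 fell in WT tnsIMs against moMs, where 13% of the 15811 genes tested rose and 8.61% fell. Blocking by the number within genotype called 6 members higher and 2 lower there, beside 2627 higher and 2120 lower of all genes tested. In Ezr-KOm tnsIMs against moMs 5 rose and 1 fell, against 9.23% and 5.04% of all genes. With the same block 5 rose and 2 fell there, beside 1993 and 1410 of all genes tested. In WT matIMs against moMs 4 rose and 2 fell, against 13.4% and 11.4%, and in Ezr-KOm matIMs against moMs 5 rose and 2 fell, against 12.5% and 10.7%. In the fits without a block, S100a9, Retnlg, Ltf and Cxcr2 rose in all 4 comparisons, Ngp rose in the 2 Ezr-KOm comparisons, Elane fell in all 4 and Csf3r fell in the 2 with matIMs. With the number within genotype as a block, Csf3r also fell in the 2 with tnsIMs. S100a8 and Ngp then rose in WT tnsIMs, and Ngp in WT matIMs. The median log2 fold change of the 10 members was 2.07 and 2.23 for WT and Ezr-KOm tnsIMs over moMs and 1.86 and 1.96 for matIMs over moMs, and placing Elane at its bound left these medians as they were. The median over all genes tested was 0.01 in each. By overlap of the libraries alone, 5 members were higher and 2 lower in WT tnsIMs than in WT moMs without overlap, beside 19.6% and 16.4% of all genes, and 6 and 1 in the Ezr-KOm mice, beside 16.1% and 12.6%. For matIMs against moMs the counts were 5 and 3 in WT, beside 22.2% and 19.3%, and 5 and 3 in Ezr-KOm mice, beside 20.7% and 19.2%. Without the 3 libraries with the highest summed CPM of the 9 members other than Csf3r (the 3rd libraries of WT tnsIMs, Ezr-KOm tnsIMs and Ezr-KOm matIMs), 4 members were called in WT tnsIMs, 6 in Ezr-KOm tnsIMs and 5 in Ezr-KOm matIMs against moMs. Of these, 4 rose and 0 fell, 5 rose and 1 fell, and 3 rose and 2 fell, in the same order. Over all genes tested, that fit called 2137 higher and 1572 lower, 1643 and 969, and 1709 and 1485.

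**Figure D3:**
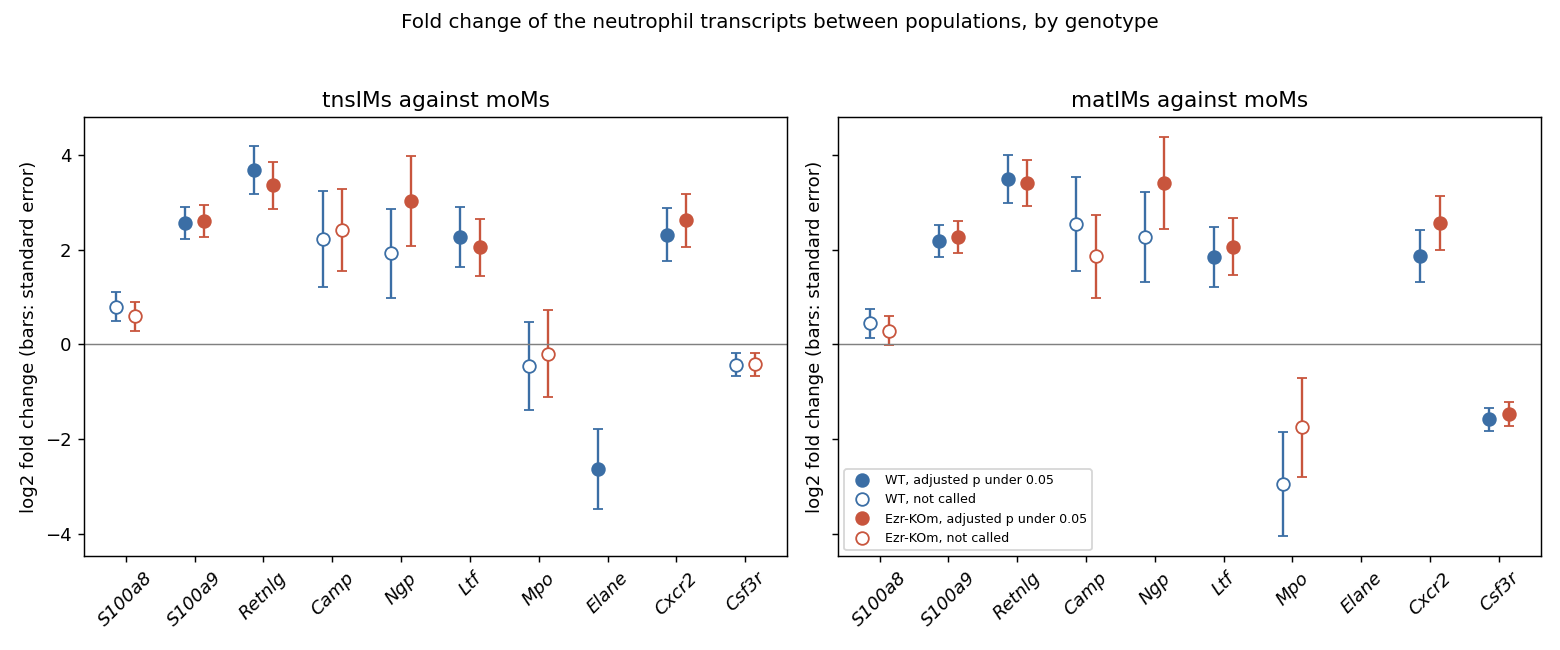
Log2 fold change of each transcript in tnsIMs (left) and matIMs (right) over moMs, for WT (blue) and Ezr-KOm (red) mice, with standard errors as bars. Filled points passed the adjusted threshold in the fit without a block. They are S100a9, Retnlg, Ltf and Cxcr2 above 0 in all 4 comparisons, Ngp above 0 in Ezr-KOm mice, Elane below 0 in WT tnsIMs and Csf3r below 0 in matIMs. Elane is left out where a group had at most 3 counts in every library.

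Between the MHC-II+ populations fewer members differed. In matIMs against tnsIMs, Csf3r alone was called, in each genotype, as 1 of 10 members beside 10.2% of all genes called lower in WT and 9.85% in Ezr-KOm mice. No member was called higher, beside 8.32% and 8.37% of all genes. The log2 fold changes of S100a8, S100a9, Retnlg, Camp, Ngp, Ltf and Cxcr2 were between -0.44 and 0.34 in WT and between -0.55 and 0.38 in Ezr-KOm mice. Mpo met only the rule of the study in WT mice (19.6% of all genes), at -2.51 (SE 1.13, adjusted p = 0.15), and passed the adjusted threshold without the 3rd WT tnsIM library (adjusted p = 0.0326, with a range of 0.0217 to 0.704 over the alternatives). Elane met only that rule too, in both genotypes (edgeR unadjusted p = 0.0179 in WT and 0.03035 in Ezr-KOm mice). It had at most 4 counts in a tnsIM library and 0 in every matIM library.

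On a scale of CPM per kb of the canonical transcript, which allows genes to be compared, S100a8 and Csf3r led in moMs at 105 ± 36.2 and 111 ± 9.15 in WT and 121 ± 19.9 and 98.5 ± 14.8 in Ezr-KOm libraries (mean ± SD, n = 3), ranges that overlap. S100a9 followed at 27.4 ± 9.78 and 25.6 ± 9.22. In tnsIMs S100a8 (182 ± 31.7 and 183 ± 50.1) and S100a9 (162 ± 32.1 and 157 ± 40.3) were alike within their spread and above Csf3r (82.0 ± 22.9 and 73.4 ± 22.4). In matIMs the same pair led at 143 ± 19.4 and 148 ± 76.8 for S100a8 and 124 ± 13.3 and 123 ± 61.4 for S100a9, ahead of Csf3r (36.9 ± 10.03 and 35.5 ± 7.42) and Retnlg (18.9 ± 2.97 and 25.5 ± 14.1), and the latter pair overlapped in the Ezr-KOm libraries. Among all tested genes with a transcript length, S100a8 was above 95.5% of genes in WT moMs and 97.7% in WT tnsIMs, S100a9 above 83.8% and 97.3%, and Retnlg above 41.2% and 81.0%. Camp, Ngp, Ltf, Mpo, Elane and Cxcr2 were all below 6 CPM per kb in the mean of every group, and Mpo was above 1.74% of genes in WT matIMs.

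Whether loss of ezrin changed these transcripts was asked within each population. No member was called in moMs, tnsIMs or matIMs by edgeR, where 0.171%, 0.164% and 0.152% of all genes were called, and none had an unadjusted p under 0.05, beside 3.74%, 3.24% and 3.84% of all genes. DESeq2 called 0 members as well. The log2 fold changes of Ezr-KOm over WT ran from -0.64 (Mpo) to 1.22 (Camp) in moMs, from -0.38 (Mpo) to 1.40 (Camp) in tnsIMs and from -0.06 (Csf3r) to 0.97 (Ngp) in matIMs, among members not at the floor of 3 counts. Standard errors ran from 0.24 to 1.24. For the abundant members the log2 fold changes were small: 0.20, 0.00 and 0.05 for S100a8, -0.09, -0.05 and -0.01 for S100a9 and -0.17, -0.16 and -0.06 for Csf3r, in moMs, tnsIMs and matIMs, with an SE of at most 0.33. Camp in tnsIMs was the only member whose genotypes did not overlap in a population, with all 3 Ezr-KOm libraries above all 3 WT libraries, beside 3.05% of all genes that were higher without overlap and 2.76% that were lower. In moMs and matIMs 0 members were apart in this way, beside 4.45% and 5.03% of all genes that were higher and 4.07% and 5.12% that were lower. The log2 fold change of Camp in tnsIMs was 1.40 (SE 0.81, unadjusted p = 0.101, adjusted p = 1). The 3 specific granule genes had positive values in tnsIMs and matIMs, from 0.39 to 1.40 and from 0.54 to 0.97, none of which passed. In tnsIMs each of the 3 was higher in the Ezr-KOm library than in the WT library of the same number in 3 of 3 pairs, and Csf3r was lower in 3 of 3. In matIMs Camp was higher in 1 of 3 pairs and Ngp and Ltf in 2 of 3. In moMs Camp and Ltf were higher in 2 of 3 pairs, Ngp in 1 of 3 and Retnlg in 3 of 3. The share of all genes with 3 of 3 pairs in 1 direction was not counted. With the number as a block the log2 fold changes in tnsIMs were 1.57 (SE 0.79, unadjusted p = 0.0628, adjusted p = 0.924) for Camp, 0.95 (SE 0.72, unadjusted p = 0.205, adjusted p = 0.957) for Ngp and 0.41 (SE 0.48, unadjusted p = 0.405, adjusted p = 0.978) for Ltf. A p that misses the threshold does not show that the genotypes were alike, and the SEs of Camp, Ngp and Mpo were 0.80 or more in each population.

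**Figure D4:**
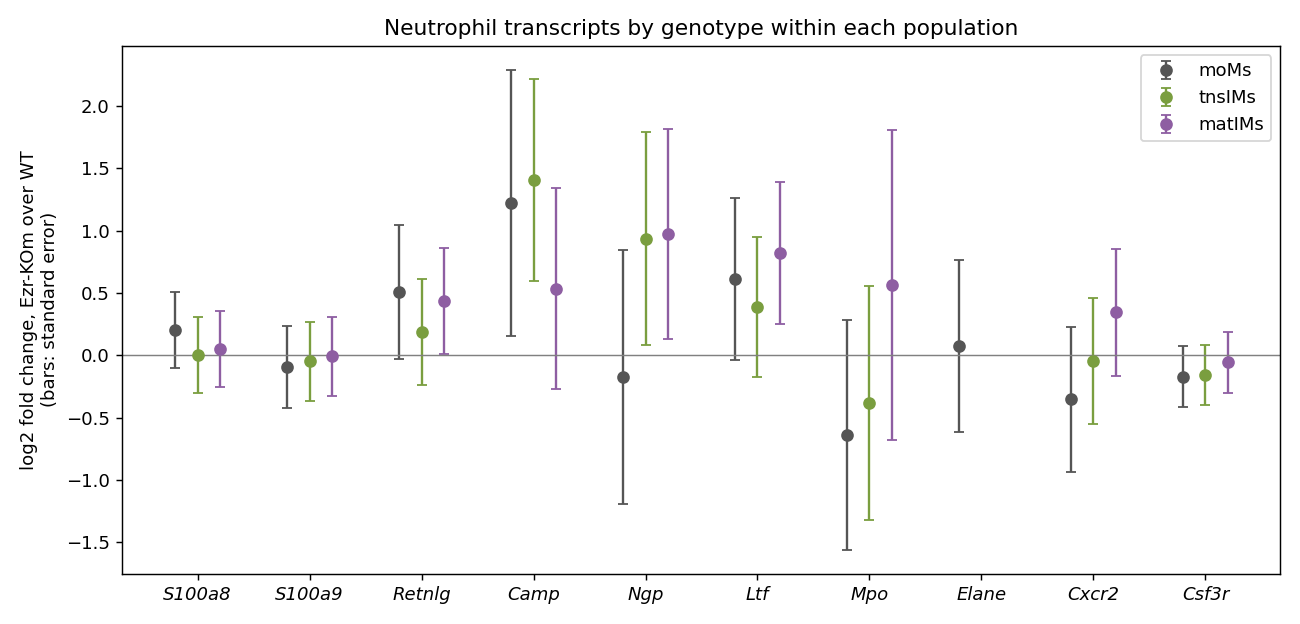
Log2 fold change of Ezr-KOm over WT for each transcript in moMs (grey), tnsIMs (green) and matIMs (purple), with standard errors as bars. S100a8, S100a9 and Csf3r lie between -0.17 and 0.20 in the 3 populations, and Camp, Ngp and Mpo have the widest errors. Elane is shown only in moMs, since at least 1 group had at most 3 counts in every library in the others.

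The difference between populations in the genotype effect was tested with interaction terms. No gene of the 15811 was called in any of the 3 interactions by edgeR or DESeq2, and 1.47%, 1.7% and 1.16% of genes had an unadjusted p under 0.05. No member was among these. The member interactions ran from -0.87 (Camp, matIMs against tnsIMs) to 1.204 (Mpo, matIMs against moMs), leaving Elane aside.

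Other neutrophil genes were read in 3 lists: other azurophil granule and promyelocyte genes (4 of 6 tested), other specific and gelatinase granule genes (9 of 9 tested) and other mature neutrophil genes (16 of 21 tested). Of the azurophil granule genes, 1 rose and 2 fell in tnsIMs against moMs in each genotype, with medians of -1.32 in WT and -1.42 in Ezr-KOm mice. Over all genes tested, 13% rose and 8.61% fell there in WT mice, and 9.23% and 5.04% in Ezr-KOm mice. Prtn3, which encodes proteinase 3, a serine protease stored with elastase, had WT means of 10.8 ± 1.15, 1.85 ± 0.629 and 0.719 ± 0.303 CPM in moMs, tnsIMs and matIMs (mean ± SD, n = 3), and fell in both, with log2 fold changes of -2.55 (SE 0.38, adjusted p = 0.000108) and -3.91 (SE 0.41, adjusted p = 1.09e-06). Fcnb, a ficolin gene, fell in WT tnsIMs with a log2 fold change of -3.91 (SE 0.48, adjusted p = 1.82e-05), while Gfi1, a transcription factor of granulocyte development, rose by 1.41 (SE 0.33, adjusted p = 0.00465). In Ezr-KOm tnsIMs the values were -2.60 (SE 0.38, adjusted p = 0.000135) for Prtn3 and -3.38 (SE 0.47, adjusted p = 8.64e-05) for Fcnb. Like Elane and Mpo, Prtn3 and Fcnb had their highest group means in moMs.

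Of the 9 other specific and gelatinase granule genes, 5 rose and 3 fell in tnsIMs against moMs in each genotype, 5 rose and 4 fell in WT matIMs and 3 rose and 3 fell in Ezr-KOm matIMs. Among all genes tested, 13% rose and 8.61% fell in WT tnsIMs, and 9.23% and 5.04% in Ezr-KOm tnsIMs. The shares in matIMs were 13.4% and 11.4% in WT and 12.5% and 10.7% in Ezr-KOm mice. Lcn2, the gene of the iron-scavenging lipocalin of specific granules, had WT means of 60.4 ± 7.98, 506 ± 194 and 103 ± 12.8 CPM in moMs, tnsIMs and matIMs, and rose in tnsIMs by 3.07 (SE 0.27, adjusted p = 4.34e-07) in WT and 2.84 (SE 0.26, adjusted p = 1.2e-06) in Ezr-KOm mice. Epithelium can also express Lcn2, and the epithelial marker sum was 3152 CPM in WT tnsIMs against 49.9 CPM in WT moMs; its part in this value was not tested. Cd177, a neutrophil surface protein gene, had WT means of 548 ± 65.8, 65 ± 11.3 and 10.8 ± 2.97 CPM in the same order, with log2 fold changes over moMs of -3.08 (SE 0.33, adjusted p = 4.82e-06) and -5.66 (SE 0.38, adjusted p = 4.28e-09). Hp, the haptoglobin gene, fell too, at -1.33 (SE 0.14, adjusted p = 3.19e-06) in WT tnsIMs and -3.50 (SE 0.15, adjusted p = 1.42e-11) in WT matIMs. Mmp25, a membrane-bound matrix metalloproteinase of neutrophils, rose in matIMs by 4.24 (SE 0.33, adjusted p = 2.98e-08) in WT and 4.37 (SE 0.32, adjusted p = 1.45e-08) in Ezr-KOm mice.

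Of the 16 other mature neutrophil genes, 8 rose and 3 fell in WT tnsIMs against moMs and 5 rose and 6 fell in WT matIMs, with 4 and 2 and then 3 and 6 in Ezr-KOm mice. The shares of all genes that rose and fell were 13% and 8.61% in WT tnsIMs and 13.4% and 11.4% in WT matIMs. They were 9.23% and 5.04% and then 12.5% and 10.7% in Ezr-KOm mice. Mrgpra2b, a receptor gene of neutrophils, rose in WT tnsIMs by 3.45 (SE 0.50, adjusted p = 8.34e-05), and G0s2, an inhibitor of lipolysis, by 2.21 (SE 0.34, adjusted p = 0.000134). Lrg1, Trem3 and Trem1 fell in WT matIMs, with log2 fold changes of -3.17 (SE 0.25, adjusted p = 3.39e-08), -1.84 (SE 0.15, adjusted p = 5.5e-08) and -1.66 (SE 0.16, adjusted p = 4.38e-07). Asprv1, a protease gene of neutrophils and skin, rose in Ezr-KOm tnsIMs by 3.58 (SE 0.59, adjusted p = 0.000431).

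**Figure D5:**
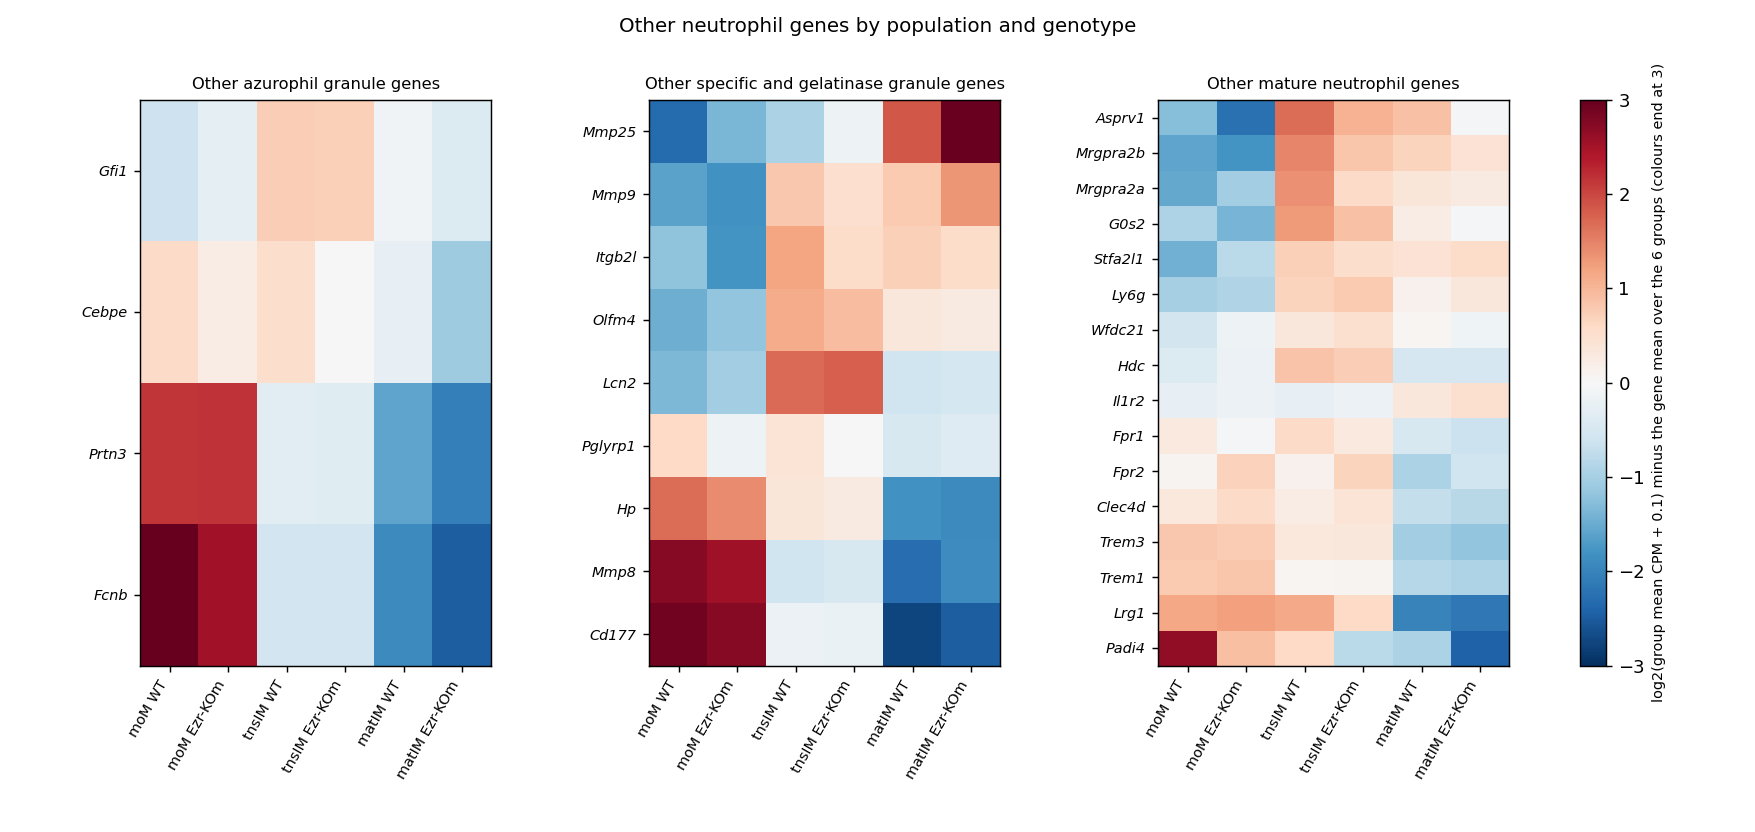
Group means of the 29 tested genes of the 3 lists of other neutrophil genes, as log2(mean CPM + 0.1) minus the mean of the gene over the 6 groups (colour scale, ending at 3 in each direction). Rows are genes and columns the 6 groups of 3 libraries. Prtn3, Fcnb, Cd177, Mmp8 and Hp are highest in moMs, and Mmp9, Itgb2l, Olfm4, Asprv1 and Mrgpra2b are lowest in them.

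Among these other neutrophil genes, Padi4 differed by genotype. Padi4, which encodes the enzyme that citrullinates histones in neutrophil extracellular traps, had means of 56 ± 12.3 CPM (WT) against 16.49 ± 6.43 CPM (Ezr-KOm) in moMs, 13.4 ± 3.78 against 4.93 ± 2.48 CPM in tnsIMs and 4.47 ± 1.48 against 1.55 ± 0.18 CPM in matIMs. It fell in Ezr-KOm moMs, with a log2 fold change of -1.76 (SE 0.34, unadjusted p = 5.17e-05, adjusted p = 0.0355). This call was lost without the 1st, 2nd or 3rd WT library or the 1st or 3rd Ezr-KOm library (adjusted p = 0.117, 0.0545, 0.214, 0.272 and 0.19) and with library totals in place of TMM (adjusted p = 0.0534), with a range of 0.000115 to 0.272 over the alternatives. In tnsIMs and matIMs it met only the rule of the study, at -1.42 (SE 0.34, unadjusted p = 0.000601, adjusted p = 0.237) and -1.52 (SE 0.38, unadjusted p = 0.000819, adjusted p = 0.27). Mmp25 met that rule in the other direction in all 3 populations, at 0.96 (SE 0.32, unadjusted p = 0.00757, adjusted p = 0.796) in moMs, 0.80 (SE 0.29, unadjusted p = 0.0141, adjusted p = 1) in tnsIMs and 1.09 (SE 0.28, unadjusted p = 0.00101, adjusted p = 0.307) in matIMs. The rule of the study was met by 2.51%, 1.83% and 2.4% of all genes in moMs, tnsIMs and matIMs.

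The ligands of the member receptors were read in the same libraries. Of 7 ligand genes, Cxcl5, a chemokine for CXCR2, and Cxcl15, a lung chemokine that attracts neutrophils, rose in tnsIMs against moMs in each genotype, by 4.05 (SE 0.38, adjusted p = 1.22e-06) and 6.10 (SE 0.60, adjusted p = 1.72e-06) in WT mice. Cxcl15 is a product of lung epithelium, whose markers moved with it, and the part of epithelium in this value was not tested. Csf3, the gene of G-CSF itself, had means of 55.9 ± 2.97 CPM in moMs and 10.6 ± 4.25 CPM in matIMs of WT mice and fell, with a log2 fold change of -2.39 (SE 0.43, adjusted p = 0.000352), in the population where its receptor gene Csf3r fell too. In Ezr-KOm matIMs the log2 fold change of Csf3 was -2.34 (SE 0.42, adjusted p = 0.000411). Among receptors and inhibitors of the member proteins, Tlr4, a receptor for S100A8 and S100A9, fell in WT matIMs with a log2 fold change of -1.58 (SE 0.28, adjusted p = 0.000315), and Slpi, an inhibitor of elastase, with one of -2.48 (SE 0.39, adjusted p = 9.67e-05). Ager, another receptor for these alarmins and a marker of alveolar type I epithelium, rose in WT tnsIMs by 3.18 (SE 0.60, adjusted p = 0.000831).

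After the mean of each of the 6 groups was subtracted from log2 CPM (prior count 2), Pearson's r over the 18 libraries was 0.83 for S100a9 and Retnlg, 0.81 for Ngp and Ltf, 0.78 for S100a9 and Ltf, 0.68 for S100a8 and S100a9 and 0.39 for Retnlg and Ngp, the highest and lowest of the pairs among S100a8, S100a9, Retnlg, Camp, Ngp and Ltf being the first and last of these. Mpo had r between -0.56 and -0.28 with S100a8, S100a9, Retnlg, Camp, Ngp and Ltf. These are descriptions, and the points share depth and, where replicate numbers match, possibly the mouse. By the same measure the 3 tested genes most like S100a9 were Rassf9 (0.87), Tmtc1 (0.86) and Stfa2l1 (0.84), the last a stefin gene from the list of mature neutrophil genes. Those most like Retnlg were Foxo1 (0.92), Trac (0.89) and Setd5 (0.87), those most like Cxcr2 were Bod1l (0.93), Zbtb20 (0.91) and Snn (0.91), and those most like Csf3r were Rbm5 (0.97), Khnyn (0.96) and Il6st (0.96). The 3 most like Ngp were Sytl1 (0.86), Cd160 (0.84) and Otud7b (0.82), and the 3 most like Ltf were Tk1 (0.86), Egln3 (0.85) and Sh2d1a (0.84). Of the 30 genes so named for the 10 members, Stfa2l1 alone was in a list of other neutrophil genes. Each was picked as among the highest of all tested genes outside the members, which by itself favours a high r, and carries no test.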

How the data were processed

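The authors deposited 1 table of raw read counts per gene for 18 SMART-Seq v4 libraries from sorted lung cells. Per the submitters' processing notes, reads were aligned to GRCm39 with STAR 2.7.9a and handled with edgeR, and the strand setting of the counting is not given in the sources used here. The 10 genes and all gene lists were chosen with earlier results of these data known. Groups followed the sample labels, and 0 columns of other samples were present. Genes were kept by edgeR's filter (minimum count 10), which left 15811 of 21254. Library totals were scaled by TMM, and a quasi-likelihood model with 6 groups (edgeR 4.0.16, R 4.3.3) gave genotype within population, population within genotype and their interactions, called at a Benjamini-Hochberg adjusted p under 0.05. The rule of the study (unadjusted p under 0.05 and a log2 fold change over 0.75 in size) was counted beside it. CPM are counts per 1000000 of the TMM-scaled library total, divided by the length of the canonical transcript where genes are compared.

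Values were given for the 10 genes in all libraries, with a test where a gene was called or met the rule of the study. Of other lists the 3 called genes with the smallest p in a comparison could be named. S100a3, Lcn2 and Mmp25 in some comparisons, and S100a4, S100a6, S100a11, Mmp8, Mmp9, Itgb2l and Olfm4, were named after their values were seen. Alternatives were DESeq2 1.42.0, other scalings and filters, replicate blocks, only the groups compared, and each library left out. A fit without the 3 libraries with the highest summed CPM of the 10 genes other than Csf3r was chosen after seeing the data. The 3 libraries of a group come from mice that the labels number as replicates, and p-values measure the spread between them. Deviations from the group means correlated at 0.102 to 0.316 between Ezr-KOm and WT libraries of the same number, against at most 0.0508 for different numbers, so the numbers pair the genotypes. Between populations of a genotype the same numbers gave 0.0905 to 0.397, with every pair over 0.1 for tnsIMs against moMs and for matIMs against tnsIMs, which are taken as paired, and 1 pair under it in each genotype for matIMs against moMs. The labels do not say whether these came from the same mouse. On counts simulated for WT tnsIMs against moMs (15811 genes, 200 changed by 2 on the log2 scale), edgeR called 79% of the changed genes, and 1.25% of its calls were false. The simulated counts held no shared deviation of same-numbered libraries, and far fewer genes changed than the 3411 called in the real comparison. These rates need not hold for the real libraries. Promoter windows were read from the GRCm39 genome at GENCODE M39 canonical starts. 1 gene of the lists is not reported here.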

Additional observations from a re-analysis of the deposited data

How the results depend on the processing

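Of 31 effects of the 10 genes followed over 447 alternative values, 397 kept their direction and their side of the threshold, 31 lost the call, 19 gained it and 0 reversed. The calls of S100a9, Retnlg and Csf3r held throughout. Those of Ltf and Ngp, of Elane in WT tnsIMs and of Cxcr2 in WT matIMs were lost when 1 of several libraries was left out. The calls of Elane in the other comparisons were not followed. Below about 1 CPM (Camp, Mpo, Elane) the counts limit what could be detected, and strand, sorting purity and the mouse behind each library are not recorded in the counts. Scaling by library totals shifted the median of all genes by 0.13 in Ezr-KOm matIMs against moMs, the one shift over 0.1.

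For counts over all genes the cause of a change was not tested. DESeq2 called 55, 55 and 52 genes by genotype in moMs, tnsIMs and matIMs, against 27, 26 and 24 by edgeR. The replicate block by number gave 42 in moMs and 38 in matIMs. Only the groups compared gave 7 in tnsIMs, the fit without 3 libraries 12, and a minimum of 10 counts in every library 13 in matIMs. This minimum tests fewer genes and gave 1760 in WT matIMs against tnsIMs (from 2926), 1439 in Ezr-KOm tnsIMs against moMs (from 2257) and 1837 in Ezr-KOm matIMs against tnsIMs (from 2881). The block by number within genotype gave 3403 in Ezr-KOm tnsIMs against moMs. It called 8 of the 10 genes, 6 higher and 2 lower, in WT tnsIMs against moMs in place of 5, S100a8 among them (edgeR adjusted p = 0.00727). Over all genes tested this block called 4747 there, 2627 higher and 2120 lower, in place of 3411. With the block by number or by number within genotype, Ngp passed in WT matIMs against moMs (edgeR adjusted p = 0.0471 and 0.0300). The values for tnsIMs against moMs stand in the report, and among the 10 genes the blocks changed the call of Csf3r in both genotypes and of Ngp and S100a8 in WT mice there, and of Ngp in WT matIMs, and no other. The fit without 3 libraries called 2 of the genes in WT matIMs against tnsIMs in place of 1, both lower, beside 1600 of all genes tested called lower. By the rule of the study, 1 of the genes differed by genotype in tnsIMs with only the groups compared and without the 3 libraries, in place of 0.

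With each library left out in turn, the genotype counts were 18 to 22, 14 to 21 and 14 to 18 in moMs, tnsIMs and matIMs. In WT mice they were 2309 to 3541 for tnsIMs against moMs, 3041 to 3469 for matIMs against moMs and 2229 to 2659 for matIMs against tnsIMs. In Ezr-KOm mice they were 1416 to 2455, 2935 to 3145 and 2291 to 2844. Of the 10 genes, 3 to 5, 4 to 6 and 1 to 2 were called in WT and 3 to 6, 5 to 8 and 1 in Ezr-KOm mice, in the same order. By the rule of the study, 0 to 1 differed by genotype in tnsIMs (1 without the 3rd WT library) and 0 to 1 in matIMs (1 without the 2nd WT library). The interactions gave 0 in all.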

Other observations

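The biological coefficient of variation that edgeR estimated for each gene was 0.71 for Ngp, 0.72 for Mpo, 0.68 for Camp, 0.48 for Ltf, 0.44 for Cxcr2 and Elane, 0.37 for Retnlg, 0.27 for S100a9, 0.26 for S100a8 and 0.21 for Csf3r, against a median of 0.220 over all genes tested. The 3rd Ezr-KOm matIM library had the highest summed level of the 10 genes without Csf3r, at 293.8 CPM, followed by the 3rd Ezr-KOm tnsIM library at 272.5 CPM and the 3rd WT tnsIM library at 260.4 CPM.

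The count ratio of Cxcr2 to Csf3r was 0.00229 to 0.0059 over the 6 moM libraries, 0.0188 to 0.0456 over the tnsIM libraries and 0.0354 to 0.108 over the matIM libraries. That of Retnlg to S100a9 was 0.0429 to 0.121 in moMs and 0.106 to 0.243 over both MHC-II+ populations. Both ratios were looked at after the values were seen and carry no test.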
